A study of Mus musculus with 8 samples.

Results

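Alcohol and aldehyde dehydrogenases were followed in testis RNA of house mice through 9 genes, Adh1, Adh4, Adh5, Adh7, Aldh1a1, Aldh1a2, Aldh2, Aldh3a2 and Aldh9a1. All probe sets that the array annotation assigns to these symbols were taken, which gave 15 of 12422 probe sets, and each of the 9 genes had at least 1. On these arrays a transcript is read by several short oligonucleotides whose signals are merged into 1 value, the probe set's. The genes were chosen with results of these same arrays already known, and at least the low Aldh2 level in ssp and the higher Adh1 level in musculus than in ssp were among them. Differences among the groups are therefore given for these genes as a description, and no p-value of a single dehydrogenase probe set is printed. Calls and counts that rest on p thresholds are given for them too. They are part of that description and not a test of these genes.

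The 8 arrays form 4 groups of 2, named in the labels as Mus musculus castaneus, Mus musculus domesticus, Mus musculus musculus and Mus musculus ssp, and the series compares gene expression in testis among them. What ssp means, and the strain, age and number of animals of any group, are not stated in the labels. The 2 arrays of a group are technical replicates, so every spread given here lies between arrays and says nothing of animals. In whole testis RNA, fewer cells of a type and less RNA per cell cannot be told apart. Whether sequence differences between the groups under the probes changed a signal was not tested.

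Alcohol dehydrogenases oxidise alcohols, ethanol and retinol among them, to aldehydes, and aldehyde dehydrogenases oxidise aldehydes to acids. The same chemistry, carried out by retinol and retinaldehyde dehydrogenases, makes retinoic acid from vitamin A. In the testis, retinoic acid is required for spermatogonia to differentiate and for germ cells to enter meiosis.

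The alcohol dehydrogenase genes lie side by side on mouse chromosome 3, in the order Adh7, Adh1, Adh6a, Adh6b, Adh4 and Adh5 in the RefSeq gene table of assembly GRCm38.p6. Aldh9a1 lies on chromosome 1, Aldh2 on 5, Aldh1a2 on 9, Aldh3a2 on 11 and Aldh1a1 on 19. The promoters of the 4 clustered genes measured here are shown because these neighbours did not share an order of the groups in the values that follow. Each is given 5′ to 3′ from 250 bases before the start of the gene to 50 bases after it, from RefSeq in build GRCm38.p6, and is the C57BL/6J reference and not a sequence of the mice on the arrays. All 4 are on the plus strand, at chr3:138217523-138217822 for Adh7, chr3:138277335-138277634 for Adh1, chr3:138415247-138415546 for Adh4 and chr3:138442843-138443142 for Adh5. Capitals mark 3 motifs searched on both strands. They are the TATA box motif, searched as TATAAA, the CAAT box motif, searched as CCAAT, and the GC box motif, searched as GGGCGG.
Adh7 promoter: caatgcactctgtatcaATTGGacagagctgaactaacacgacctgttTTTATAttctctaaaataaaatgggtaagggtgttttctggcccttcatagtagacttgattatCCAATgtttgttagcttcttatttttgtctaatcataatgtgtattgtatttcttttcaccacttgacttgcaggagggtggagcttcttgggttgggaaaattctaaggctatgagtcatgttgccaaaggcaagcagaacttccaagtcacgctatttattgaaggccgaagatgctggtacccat
Adh1 promoter: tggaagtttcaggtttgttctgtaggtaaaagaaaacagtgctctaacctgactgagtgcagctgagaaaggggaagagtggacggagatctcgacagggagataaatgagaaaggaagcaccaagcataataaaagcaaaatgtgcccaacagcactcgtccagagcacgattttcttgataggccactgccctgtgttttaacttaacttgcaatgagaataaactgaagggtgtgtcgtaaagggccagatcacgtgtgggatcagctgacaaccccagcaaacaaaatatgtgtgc
Adh4 promoter: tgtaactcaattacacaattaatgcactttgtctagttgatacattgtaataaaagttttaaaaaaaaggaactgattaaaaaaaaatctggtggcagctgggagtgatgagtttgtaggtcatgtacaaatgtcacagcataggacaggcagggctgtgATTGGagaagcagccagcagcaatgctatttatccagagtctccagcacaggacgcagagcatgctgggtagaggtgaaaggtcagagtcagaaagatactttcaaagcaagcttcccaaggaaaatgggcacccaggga
Adh5 promoter: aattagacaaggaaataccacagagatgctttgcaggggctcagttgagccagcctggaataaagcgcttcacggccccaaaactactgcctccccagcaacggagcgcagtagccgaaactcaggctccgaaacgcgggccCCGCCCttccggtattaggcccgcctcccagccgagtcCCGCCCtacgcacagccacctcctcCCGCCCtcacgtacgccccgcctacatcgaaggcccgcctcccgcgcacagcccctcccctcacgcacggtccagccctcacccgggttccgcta

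The windows of these neighbours differed in composition. The Adh5 window held 3 GGGCGG matches, with first bases at -108, -70 and -45 from the start, 26 CG dinucleotides and 65.0% G and C. A second Adh5 start in the table, at chr3:138436950-138437249, held 1 TATAAA match and 3 CG dinucleotides. The Adh1 window held none of the 3 motifs and had 45.3% G and C, the Adh4 window held 1 CCAAT match at -90 with 42.3%, and the Adh7 window held 2 CCAAT matches and 1 TATAAA match with 39.3%. Of 32851 mouse promoter windows of this length, 13.6% held the TATA box motif, 37.4% the CAAT box motif and 35.7% the GC box motif. No match overlapped another in the sequences shown, and a match of letters is a description only.

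Values are intensities as the authors deposited them, on a linear scale. For means, folds and log2 differences, a floor of 18.7 was set, the 10th percentile over all arrays, and dimmer values were lifted to it. Means are geometric, and SDs are of log2 intensity (n = 2 arrays each). Testing was limited to the 8874 probe sets at or above the 40th percentile on 2 or more arrays, 14 of the 15 dehydrogenase probe sets among them. Those called different among the groups had an adjusted p under 0.05 by limma's F test (Benjamini-Hochberg, over all 8874) and means at least 1 apart in log2.

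The dehydrogenase probe sets followed no common order of the groups. Of the 14 tested, 6 were highest in domesticus, 5 in musculus, 2 in castaneus and 1 in ssp, while 6 were lowest in musculus, 6 in ssp, 2 in castaneus and 0 in domesticus. The group means spanned a median of 1.84 on the log2 scale in these 14, beside 0.81 in all tested probe sets, and the arrays of a group differed by a median of 0.39, beside 0.48. Different among the groups were 5 of the 14, from Adh1, Adh4, Aldh9a1 and 2 of the 3 Aldh2 probe sets, where 1.76% of all tested probe sets were called. As the genes were chosen on these arrays, nothing is read from that count. A letter before _at in the identifier, which in Affymetrix naming warns of probes shared with similar transcripts or of relaxed probe selection, was carried by 4 of these 5, all but that of Adh1, by 6 of the 14 tested, by 29.5% of all probe sets called different and by 20.4% of all tested. Leaving out 1 array left 0 of the 14 called in 7 of the 8 fits and 1, that of Adh1, without ssp replicate 1, with 9 or 10 of the 14 and 12.5% to 16.7% of all tested probe sets at an unadjusted p under 0.05, while the count over all probe sets fell to between 7 and 43, against 156 with all arrays.

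**Figure D1:**
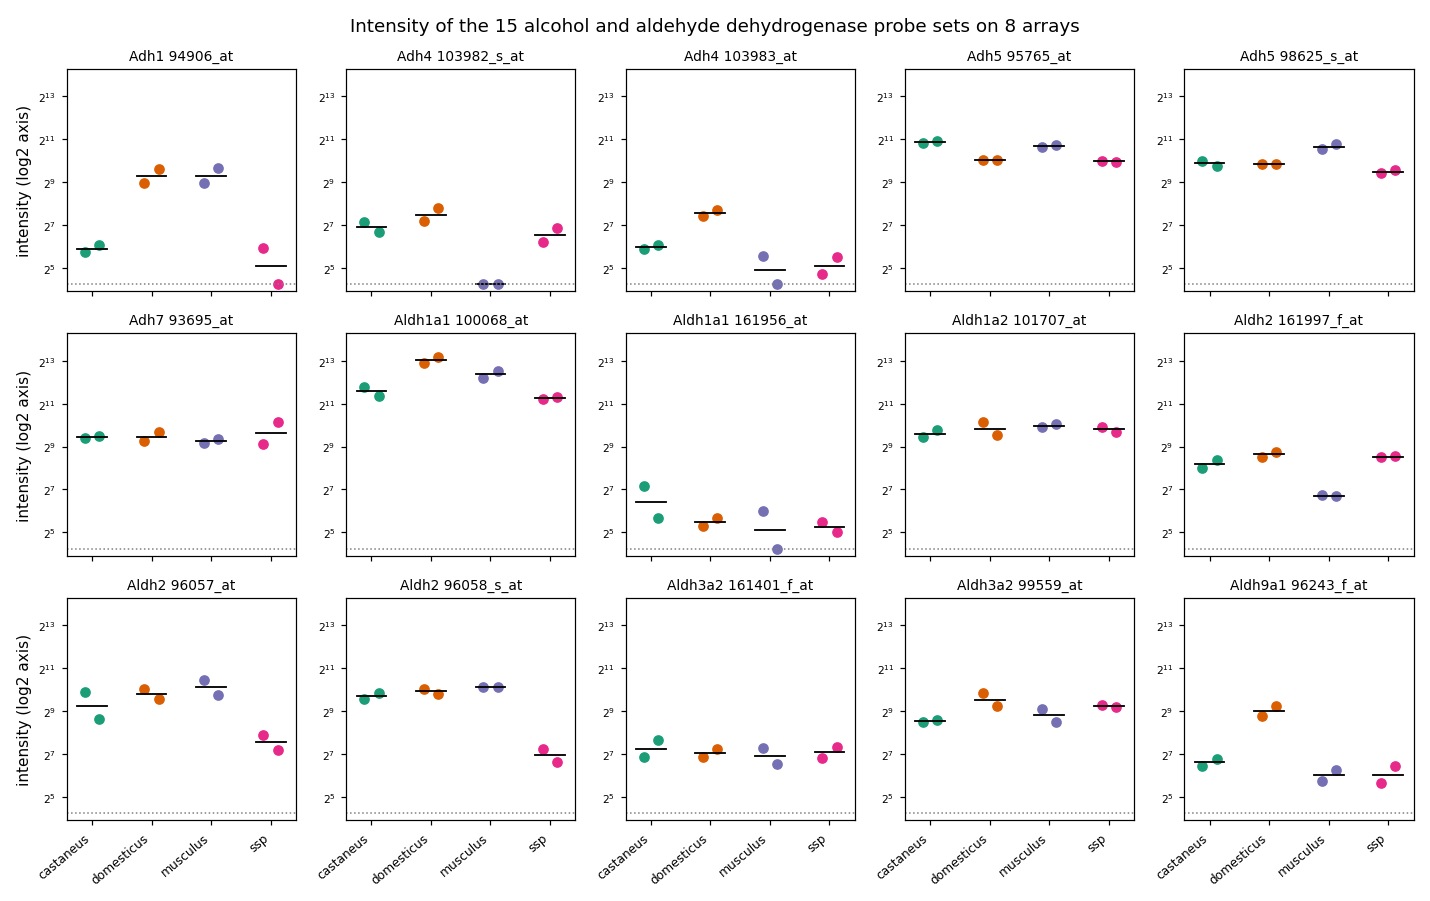
Intensity (log2 axis) of the 15 probe sets on the 8 arrays, with a point per array, a bar at the geometric mean of each group and a dotted line at the floor of 18.7. Adh1 was high on the domesticus and musculus arrays, 1 Adh4 probe set was at the floor on both musculus arrays, and 1 Aldh2 probe set was low on both ssp arrays.

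Adh1, the class I alcohol dehydrogenase that oxidises ethanol and retinol, split the groups into 2 high and 2 low. Its probe set read 495.0 and 798.2 in musculus, 500.3 and 772.6 in domesticus, 53.5 and 66.0 in castaneus, and 60.5 and 18.9 in ssp. All 4 musculus and domesticus arrays lay above all 4 castaneus and ssp arrays, musculus and domesticus overlapped each other, and so did castaneus and ssp. The mean was 628.6 in musculus (SD 0.49), 621.7 in domesticus (SD 0.44), 59.4 in castaneus (SD 0.21) and 33.8 in ssp (SD 1.19). Musculus was 18.6-fold above ssp, a log2 difference of 4.22 (SE 0.59), and domesticus was 18.4-fold above ssp, and both pairs were called. Musculus and domesticus were 10.6-fold and 10.5-fold above castaneus, and neither pair was called. The folds over ssp rest on ssp replicate 2, which lay next to the floor. Without it they were 10.4-fold for musculus and 10.3-fold for domesticus, and without ssp replicate 1 they were 33.3-fold and 32.9-fold.

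Adh4, the class II alcohol dehydrogenase best known from liver, was highest in domesticus by both of its probe sets and lowest in musculus. Probe set 103982_s_at read 142.7 and 220.6 in domesticus, 139.0 and 103.2 in castaneus, 74.2 and 116.8 in ssp, and 17.9 and 14.1 in musculus. Both musculus arrays lay under the floor and below every other array, castaneus and ssp overlapped, and both domesticus arrays lay above those. Domesticus was at least 9.49-fold, castaneus at least 6.40-fold and ssp at least 4.98-fold above musculus, and the first 2 pairs were called. Adh4 103982_s_at was not called different among the groups with a floor at the 20th percentile or with a trended and robust variance model, and it was not tested with a filter at the 60th percentile. Neither pair was called with that floor, and castaneus over musculus was not called with that variance model or with a pseudocount of 32 in place of the floor. Probe set 103983_at read 173.0 and 207.6 in domesticus, 57.9 and 67.0 in castaneus, 25.8 and 44.8 in ssp, and 47.0 and 17.0 in musculus. By this probe set domesticus was 3.04-fold above castaneus, 5.57-fold above ssp and 6.39-fold above musculus, with no overlap, and ssp and musculus overlapped. The SE of its log2 differences was 0.50, and it was called in no pair. Its fold of domesticus over musculus was at least 10.1 without musculus replicate 1, which leaves 1 musculus array that is under the floor, and 4.03 without musculus replicate 2.

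Adh5, the class III enzyme that clears formaldehyde bound to glutathione and reduces S-nitrosoglutathione in most cells, varied little between arrays of a group. Probe set 95765_at read 1823.4 and 1934.2 in castaneus, 1594.7 and 1692.6 in musculus, 1051.0 and 1035.2 in domesticus, and 1017.5 and 991.1 in ssp. The groups did not overlap, with castaneus and musculus above domesticus and ssp and a span of 1.87-fold, 0.90 in log2 (SE 0.22). Probe set 98625_s_at read 1475.0 and 1748.6 in musculus, 1016.2 and 871.6 in castaneus, 917.2 and 913.2 in domesticus, and 680.6 and 745.6 in ssp. Musculus was 2.25-fold above ssp, with a log2 difference of 1.17 (SE 0.24), and 1.71-fold above castaneus. The 2 probe sets placed ssp lowest and musculus above domesticus, and they differed on castaneus, which was 1.80-fold above domesticus by the first and 1.03-fold, with overlap, by the second. Neither probe set was called different among the groups.

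Adh7, the class IV enzyme of stomach epithelium with high activity on retinol, did not separate the groups beyond the arrays. It read 548.7 and 1132.0 in ssp, 607.8 and 813.1 in domesticus, 669.9 and 714.2 in castaneus, and 579.5 and 657.1 in musculus. The ssp arrays differed from each other by 2.06-fold, more than the 1.28-fold span of the group means.

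**Figure D2:**
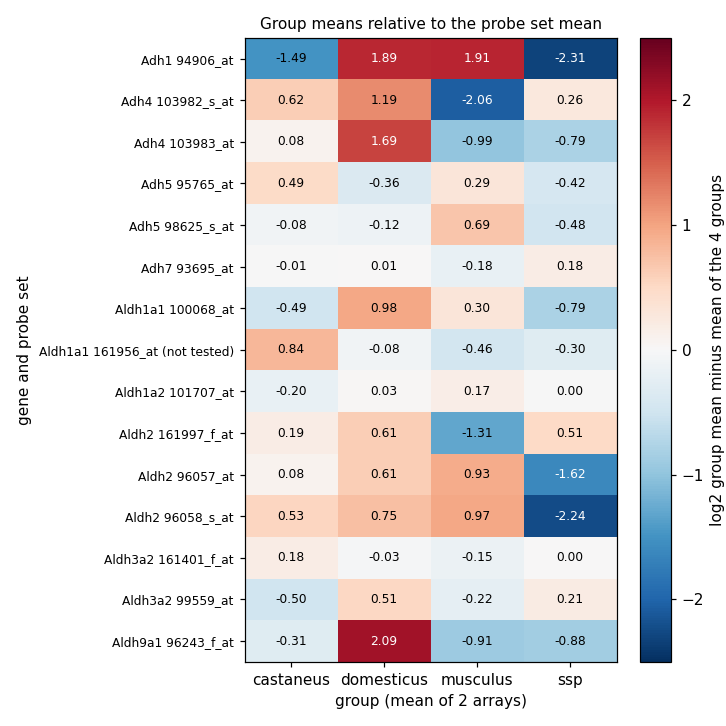
Log2 group mean minus the mean of the 4 groups for each of the 15 probe sets, in red where a group lies above that mean and in blue where it lies below. Adh1 is high in both domesticus and musculus, Aldh9a1 in domesticus, and the Aldh2 probe sets differ on which group is low.

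Among the retinaldehyde dehydrogenases, Aldh1a1 varied among the groups and Aldh1a2, the enzyme required for retinoic acid synthesis in the embryo, did not beyond the arrays. Aldh1a1 probe set 100068_at read 7532.2 and 9382.4 in domesticus, 4662.9 and 5953.3 in musculus, 3493.6 and 2657.3 in castaneus, and 2367.8 and 2583.2 in ssp. No group overlapped another, and domesticus was 1.60-fold above musculus, 2.76-fold above castaneus and 3.40-fold above ssp, with a log2 difference of 1.77 over ssp (SE 0.28). It was called neither among the 4 groups nor in a pair. The other Aldh1a1 probe set, 161956_at, was too dim to be tested, at 11.4 to 141.0 over the 8 arrays, and did not show this order. Aldh1a2 read 961.4 and 1053.5 in musculus, 1122.6 and 739.9 in domesticus, 973.8 and 816.0 in ssp, and 697.1 and 874.4 in castaneus. Its group means spanned 1.29-fold, and the domesticus arrays differed from each other by 1.52-fold.

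Aldh2, the mitochondrial enzyme that oxidises acetaldehyde, was lowest in ssp by 2 of its 3 probe sets and lowest in musculus by the third. Probe set 96058_s_at read 1125.5 and 1136.0 in musculus, 1058.7 and 890.2 in domesticus, 759.0 and 921.9 in castaneus, and 151.2 and 99.1 in ssp. Both ssp arrays lay below every other array, and domesticus and castaneus overlapped. Musculus was 9.24-fold, domesticus 7.93-fold and castaneus 6.83-fold above ssp, with log2 differences of 3.21, 2.99 and 2.77 (SE 0.30 each), and all 3 pairs were called. It was the only 1 of the 14 called in all 3 pairs of a group in 1 direction, as were 50 of all 8874 tested probe sets. Called lower in ssp in this way were 0.0902% of all tested probe sets. The low Aldh2 level in ssp was known when the genes were chosen, so nothing is read from these calls.

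Probe set 96057_at gave the same order of group means, with a wider spread between arrays. It read 1420.8 and 854.0 in musculus, 1042.8 and 756.6 in domesticus, 958.7 and 391.3 in castaneus, and 240.6 and 148.1 in ssp. Again both ssp arrays lay below every other array, and musculus was 5.84-fold, domesticus 4.71-fold and castaneus 3.24-fold above ssp. The SE of these differences was 0.53 in log2. No pair was called, and castaneus over ssp was 2.07-fold without castaneus replicate 1 and 5.08-fold without castaneus replicate 2. Probe set 161997_f_at read 362.0 and 434.2 in domesticus, 365.0 and 371.7 in ssp, 259.3 and 334.9 in castaneus, and 105.7 and 103.8 in musculus. By this probe set both musculus arrays lay below every other array, and domesticus and ssp overlapped. Domesticus was 3.78-fold and ssp 3.52-fold above musculus, with log2 differences of 1.92 and 1.81 (SE 0.25 each), and both pairs were called. This probe set was not called different among the groups after median centring or quantile normalization. For musculus over ssp the 3 probe sets gave 9.24-fold, 5.84-fold and, in the opposite direction, ssp 3.52-fold above musculus.

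Aldh9a1, which oxidises trimethylaminobutyraldehyde in the synthesis of carnitine, was high in domesticus. Its only probe set, 96243_f_at, read 439.5 and 600.3 in domesticus, 88.1 and 107.6 in castaneus, 50.2 and 85.5 in ssp, and 54.0 and 75.8 in musculus. Both domesticus arrays lay above all others, and ssp and musculus overlapped. Domesticus was 8.03-fold above musculus and 7.84-fold above ssp, with log2 differences of 3.01 and 2.97 (SE 0.37 each), and both pairs were called. It was 5.28-fold above castaneus, a pair that was not called. With quantile normalization neither the difference among the groups nor domesticus over musculus was called.

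Aldh3a2, the fatty aldehyde dehydrogenase whose human gene is mutated in Sjögren-Larsson syndrome, was called by neither of its probe sets. Probe set 99559_at read 916.9 and 602.0 in domesticus, 622.9 and 585.0 in ssp, 547.3 and 364.2 in musculus, and 358.4 and 379.9 in castaneus. Domesticus was above castaneus without overlap, by 2.01-fold or 1.01 in log2 (SE 0.32), and musculus and castaneus overlapped, as did domesticus and ssp. Probe set 161401_f_at lay between 92.8 and 201.1 on the 8 arrays, with every pair of groups overlapping and a span of 1.26-fold.

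By pairs, domesticus held the higher value in every called pair it was part of. Domesticus against ssp was called for 3 of the 14 probe sets, those of Adh1, Aldh2 96058_s_at and Aldh9a1, and domesticus against musculus for 3, those of Adh4 103982_s_at, Aldh2 161997_f_at and Aldh9a1. Musculus against ssp was called for 3, with Adh1 and Aldh2 96058_s_at higher in musculus and Aldh2 161997_f_at higher in ssp. Castaneus against musculus was called for Adh4 103982_s_at and castaneus against ssp for Aldh2 96058_s_at. Domesticus against castaneus was called for 0 by limma. In that pair, 6 of the 14 and 11.0% of all tested probe sets had an unadjusted p under 0.05 by limma. The higher mean was in domesticus for 11 of the 14. Their median log2 difference, castaneus minus domesticus, was -0.48, beside 0.017 over all tested probe sets. The genes were chosen on these arrays and some have several probe sets, so nothing is read from these values. Over all tested probe sets, 0.687% were called for domesticus against ssp, 0.744% for domesticus against musculus, 0.98% for musculus against ssp, 0.947% for castaneus against musculus, 0.349% for castaneus against ssp and 0.676% for domesticus against castaneus. These comparisons share arrays, since each group is part of 3 pairs. Of the 11 calls, 7 remained without ssp replicate 1, 3 without ssp replicate 2, 1 without either castaneus array, and 0 without any 1 domesticus or musculus array.

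**Figure D3:**
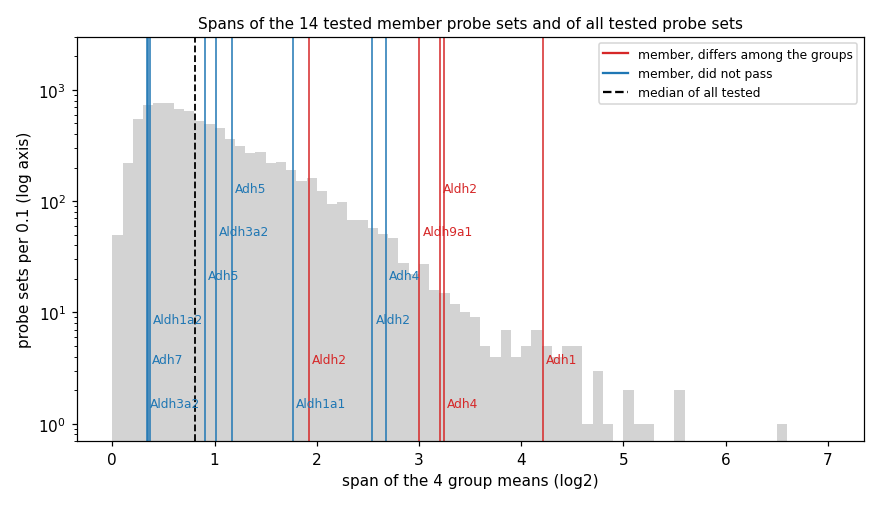
Histogram of the span of the 4 group means (log2) over the 8874 tested probe sets, on a log axis, with the 14 dehydrogenase probe sets as lines, red where called different among the groups. The lines run from 0.34 for an Aldh3a2 probe set to 4.22 for Adh1, and the dashed line is the median of all tested probe sets, 0.81.

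Markers of testis cells were read beside these values. Of 13 spermatid markers, 13 had a probe set and their summed intensity was 270800 to 410000 over the 8 arrays, and none of the 13 was at the floor on every array. Of 13 listed Leydig cell markers, 10 had a probe set, none was at the floor on every array and 7 were highest in musculus. Their summed intensity was 19920 and 23860 in musculus, 8127 and 9390 in domesticus, 9564 and 8903 in castaneus, and 6988 and 7822 in ssp. Star, which delivers cholesterol to mitochondria, and Cyp17a1, which makes androgen precursors, were called different among the groups. Cyp17a1 and Fdx1 made up 55.8% to 76.1% of the Leydig sum on each array, and its markers did not all follow it. The sum in domesticus overlapped that in castaneus. Of the 10 markers, 5 lay higher in domesticus than in castaneus without overlap (Star, Cyp11a1, Hsd3b6, Hsd17b3 and Scarb1). Another 2 lay lower (Cyp17a1 and Hsd3b1) and 3 overlapped. The share of all tested probe sets without overlap between these 2 groups was not counted, so nothing is read from these counts. Star read 593.9 and 620.7 in musculus, 351.7 and 437.3 in domesticus, 174.9 and 206.3 in castaneus, and 118.2 and 120.8 in ssp. Hsd3b6, a steroid dehydrogenase read by a probe set with an identifier letter and not called, read 237.7 and 207.0 in musculus, 339.5 and 303.7 in domesticus, 80.8 and 35.5 in castaneus, and 129.5 and 104.1 in ssp. Like Adh1, Star and Hsd3b6 were thus higher on all 4 musculus and domesticus arrays than on all 4 castaneus and ssp arrays. So was Hsd17b3, at 348.7 to 544.8 against 143.3 to 319.1. The remaining markers of the 10 did not show this split. Among them, Cyp17a1 and Hsd3b1 lay lower in domesticus than in castaneus, and Insl3 and Hsd11b1 had their highest means in ssp. Nor was the split particular to Leydig cell markers. The macrophage marker Lyz2, not called, showed it too, at 259.3 to 351.4 against 15.7 to 170.0. The share of all tested probe sets with this split was not counted, so nothing is read from the likeness to Adh1. Summed over 10 macrophage markers, intensity was 4836 and 4025 in musculus, 2966 and 2816 in domesticus, 2182 and 2098 in castaneus, and 2304 and 3189 in ssp. For 2 red blood cell markers, Hba-a1 and Alas2, the sum was 13970 and 17680 in musculus and 1558 to 5394 on the other 6 arrays. Sertoli cell markers, 11 with a probe set, summed to 13810 to 15640 in musculus, domesticus and castaneus and to 12800 and 12030 in ssp. Clu and Ctsl made up 63.2% to 72.8% of the Sertoli sum on each array, and the markers did not all follow it. Of the 11, 3 were highest in ssp (Amh, Wt1 and Dmrt1), 3 in castaneus, 3 in domesticus and 2 in musculus. Of 5 liver markers, Fgb was at the floor on every array, and the sum was 222.6 to 455.9 over the 8 arrays. For 5 adipose markers the sum was highest in ssp, at 1244 and 1613, and lowest in castaneus, at 572.8 and 658.2. Adipoq and Lep made up 52.1% to 94.6% of the adipose sum on each array. Adipoq, the only 1 of the 5 called different among the groups, followed the sum, while Lep had its lowest mean in ssp. The part of these cells in the dehydrogenase values was not tested.

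**Figure D4:**
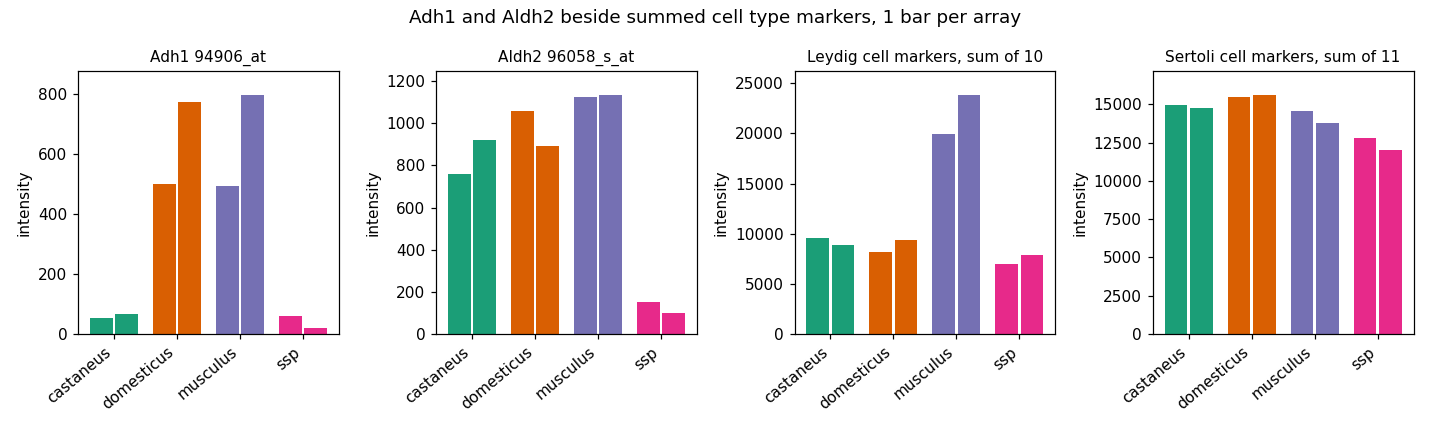
Intensity per array, with 1 bar per array and axes from 0, of Adh1, of Aldh2 probe set 96058_s_at, and of the summed markers of Leydig cells (10 genes) and Sertoli cells (11 genes). Adh1 is high in domesticus and musculus, and the Leydig sum, of which Cyp17a1 and Fdx1 make up 55.8% to 76.1%, is highest in musculus, at 19920 and 23860. The Sertoli sum, of which Clu and Ctsl make up 63.2% to 72.8%, is lowest in ssp, at 12800 and 12030.

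Genes of the surrounding pathways, listed by role, gave few calls. Other alcohol and aldehyde dehydrogenases had 5 tested probe sets, retinoid metabolism and signalling 15, and other enzymes of ethanol, acetate and carbonyl compounds 14. None of these 34 was called different among the groups by limma, and 7 had an unadjusted p under 0.05, which is 20.6%, beside 15.9% of all tested probe sets. Their median span was 1.14 on the log2 scale, beside 0.81 for all tested probe sets.

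A pair of groups was called for 1 of the 34, a probe set of Rdh11, a retinal reductase. Rdh11 99592_f_at read 8751.1 and 15607.3 in castaneus, 7141.3 and 10535.5 in ssp, 2462.5 and 3708.1 in domesticus, and 1511.3 and 1702.2 in musculus. Castaneus was 7.29-fold above musculus, with a log2 difference of 2.87 (SE 0.40, limma, adjusted p = 0.0449). Its other probe set, 99591_i_at, was also highest in castaneus and lowest in musculus by its means, at 9037 and 2464, and was not called. Rdh11 99592_f_at had an adjusted p of 0.0505 among the 4 groups by limma, the smallest of the 34.

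Among tested probe sets, the 5 named genes whose log2 intensities over the 8 arrays were most like those of Adh1 were Ighg3 (Pearson's r = 0.985), Aqp9 (0.974), Gtf3c4 (0.968), Ddost (0.966) and Ighm (0.954). Aqp9, a channel for water and glycerol, read 746.9 and 911.3 in musculus, 832.3 and 752.6 in domesticus, 431.0 and 266.4 in ssp, and 334.1 and 326.2 in castaneus. The Ighg3 and Ighm probe sets, for immunoglobulin heavy chains, and that of Gtf3c4 carry an identifier letter as described above. The 5 genes most like Aldh2 96058_s_at were Exosc7 (0.987), Oxct1 (0.979), Morf4l2 (0.976), Psmd4 (0.974) and Crat (0.973). Oxct1, which activates ketone bodies for oxidation, read 174.3 and 126.7 in musculus, 167.2 and 170.6 in domesticus, 98.6 and 155.1 in castaneus, and 27.1 and 23.4 in ssp. Crat, carnitine acetyltransferase, spanned 4.44-fold and was also lowest in ssp, at 343.2 and 244.2. These correlations rest on 8 arrays that come in technical pairs, and they are descriptions of likeness picked as the highest of all tested probe sets.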

How the data were processed

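Testis total RNA of mice was measured on Affymetrix arrays, per the labels. The authors deposited an intensity on a linear scale for each probe set and array, and the sources used here do not state how they summarised and scaled the probes. The mean after trimming 2% at each end was 495.65 to 496.68 on every array, and medians were 151.2 to 182.55. The number of arrays limits the precision.

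Values under the floor of 18.7 were raised to it, log2 was taken, and 8874 probe sets were fitted over all 8 arrays with limma 3.58.1 in R 4.3.3, with 1 mean per group, 4 residual and 2.34 prior degrees of freedom. Pairs were adjusted within each pair. A pair of groups was called at an adjusted p under 0.05 and a log2 difference of at least 1. The fit was tested on simulated data.

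Gene symbols came from the platform annotation, updated through the Entrez number to RefSeq's GRCm38.p6 table (10817 of 10833 probe sets with 1 symbol matched, and 396 with several and 1193 with none were not named). The members and lists were chosen with earlier results of these data known. Every member probe set is named, as is every pathway probe set called among the groups or in a pair. The 5 genes most like Adh1 and Aldh2 are named, and a marker gene is read by its tested probe set of highest mean. Oxct1, Crat, Aqp9, Star, Cyp17a1, Hsd3b6, Hsd17b3, Lyz2, Adipoq, Mgst3, Rxra and Stra8 were singled out after their values were seen. Alternatives changed the scaling, floor, filter, variance model, block, size threshold and arrays.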

Additional observations from a re-analysis of the deposited data

How the results depend on the processing

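All 11 calls of a dehydrogenase probe set in a pair of groups kept their direction under each of the 14 settings compared (2 scalings, 2 floors, the variance model, the replicate block and 8 fits without 1 array), but many did not stay called. In the fits without 1 array the direction was fixed in advance, because the arrays of a called pair did not overlap. The variance model and the replicate block left the group differences unchanged. Nothing is read from the kept direction. The number of dehydrogenase probe sets different among the groups, 5, was 4 with median centring, 3 with quantile normalization and 0 with no filter. It was 1, that of Aldh9a1, with the replicate block, and 7 with the trended and robust variance model. Of all tested probe sets, 1.71%, 1.77%, 0.25%, 0.473% and 4.32% were called in these settings, beside 1.76% in the main fit. Aldh1a1 100068_at, Aldh2 96057_at and Adh5 98625_s_at were among the 7. Aldh1a1 100068_at was also called with the 60th percentile filter, and Adh4 103983_at with the 20th percentile floor. With no filter, 10 of the 15 tested and 13.7% of all probe sets had an unadjusted p under 0.05 by limma's F test. The number of pair calls, 11, was 2 with no filter, 18 with the trended and robust variance model, 4 with the replicate block, 0 to 8 without 1 array and 0 when each pair was fitted on its own 4 arrays. The number of probe sets specific to 1 group, 1, was 2 with a floor at the 20th percentile, 2 with a pseudocount of 32 and no floor, 3 with a filter at the 60th percentile, 0 with no filter, 0 with the replicate block and 0 without any 1 array. The pathway count, 0, was 1 with quantile normalization, 1 with the 20th percentile floor, 1 with the pseudocount, 2 with the 60th percentile filter and 2 with the trended and robust model. With no filter more probe sets were tested, and with an array left out fewer arrays were. The cause of the other changes was not tested. A lone array of a group was assumed to vary like the other groups. Whether replicate numbers mark a shared run is not stated in the labels. Deviations of same-numbered arrays correlated at 0.026 to 0.171 over the 6 pairs of groups, over 0.1 in 4 of them, and the summed spermatogonia and endothelium markers, Dazl and Pecam1 were higher on replicate 1 in all 4 groups. The number was not taken as a pairing, and whether it is one was not settled. By number, 3 of the 14 probe sets and 24.1% of all tested differed in 1 direction in all 4 groups. Of the 3, Aldh2 96057_at was higher on replicate 1, and those of Adh7 and Aldh9a1 were higher on replicate 2. The folds of Adh4 over musculus are set by the floor, and the log2 difference of domesticus minus musculus for 103982_s_at was 2.23 with the 20th percentile floor.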

Other observations

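Protein-coding genes within 3 places of a dehydrogenase gene in the RefSeq table were looked at after the dehydrogenase values were known. Of these neighbours, Mgst3, a microsomal glutathione transferase beside Aldh9a1, was the only 1 with a probe set called different among the groups. Over all tested probe sets, 1.76% were so called, and a link between Mgst3 and Aldh9a1 was not tested. The share called among the tested neighbours was not counted, so nothing is read from this call. Probe set 96258_at of Mgst3 read 1126.5 and 954.2 in castaneus, 528.6 and 648.8 in musculus, 319.5 and 239.0 in ssp, and 259.8 and 276.1 in domesticus, where Aldh9a1 was highest (limma, adjusted p = 0.0465, span 3.87-fold). Its other probe set was under the floor on all 8 arrays. Beside the alcohol dehydrogenases on chromosome 3, tested probe sets of Metap1, Eif4e and Tspan5 spanned 1.43-fold, 1.97-fold and 6.10-fold and were not called. Mapkapk5 and Brap, near Aldh2, spanned 1.30-fold and 1.23-fold, beside 9.24-fold for Aldh2 96058_s_at.

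In the pathway lists, the retinoid receptor Rxra and the retinoic acid responsive Stra8 had their extreme means in ssp without being called. Rxra 92234_at read 1306.3 and 1674.5 in ssp, against 242.9 to 550.4 on the other 6 arrays (limma, adjusted p = 0.0942 among the 4 groups). Stra8, a gene of premeiotic germ cells, read 29.3 and 21.8 in ssp, against 73.8 to 202.0 on the other 6 arrays (limma, adjusted p = 0.131).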
